A study of Mus musculus with 30 samples.

Results

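Elastic fibres are built by secreted proteins that meet outside the cell, and transcripts of 10 genes of this pathway were followed in cultured adipose-derived stem cells of mice. The genes were elastin (Eln), the fibulins Fbln1, Fbln2, Fbln5, Efemp1 and Efemp2, the microfibril-associated protein Mfap5, and the lysyl oxidases Lox, Loxl1 and Loxl2. They were chosen by symbol among the 38561 genes of the count table, with earlier results of these data known. All 10 passed the filter on low counts. RNA was sequenced from 30 libraries, 1 for each male C57BL6/J mouse. Aged obese mice (6 libraries) and young obese mice (8 libraries) had eaten a lard-based diet with 60% of its energy from fat since weaning. Aged lean mice (8 libraries) and young lean mice (8 libraries) had eaten control chow. Mice came from a diet-induced obesity colony. Aged mice were 52 weeks old and young mice 20 weeks old, so aged obese mice had also spent longer on the diet, and among obese mice age and time on the diet cannot be told apart. Of 12 mice bought per group, 8 aged obese mice were alive when the study was ended early, so aged obese cells came from survivors. Cells of inguinal fat had been sorted for Sca-1 and CD34 and against CD31, CD45 and Ter119, then grown to passage 2 and frozen for each mouse, so the RNA is that of expanded cultures and not of fat tissue.

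Elastin is secreted as soluble tropoelastin, gathered on a scaffold of fibrillin microfibrils and cross-linked there into an insoluble, stretchable polymer. Fibulins bind tropoelastin, microfibrils and the cross-linking enzymes and help to place them, and lysyl oxidases are copper enzymes that oxidize lysines of elastin and collagen so that cross-links can form. Fibroblast-like cells of fat make much of this matrix, which surrounds adipocytes and vessels.

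The sorted population was checked by its markers. Ly6a, which encodes Sca-1, was detected in every library (176.5 to 1254 CPM, counts per 1000000 after scaling), and Cd34 ranged from 0.193 to 38.0 CPM. Col1a1 of fibroblasts was high throughout (12155 to 44931 CPM). Defining genes of other cells were at or near 0, with highest values of 0.0290 CPM for Ptprc and 0.0273 CPM for Adgre1 of leukocytes, 0.278 CPM for Pecam1 of endothelium and 0 CPM for Lep of adipocytes. Other genes of those lists were detected, with highest values of 30.6 CPM for Csf1r, 16.2 CPM for Tek and 16.4 CPM for Adipoq, and the contractile gene Acta2 was high in every library (2565 to 6861 CPM). Krt19 of the mesothelial list was also detected in every library (54.2 to 254.4 CPM). The rest of that list was near 0, with highest values of 0.264 CPM for Msln, 0.216 CPM for Upk3b and 0.559 CPM for Wt1. Depth was high, with 30597765 to 47970233 counts in genes per library.

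Some libraries stood apart from the rest of their group over all genes. The results are given with and without 2 pairs of them, aged obese 10 and 12 and young obese 1 and 2. Young obese 22 also stood apart. Its chi-square per gene, larger between less alike libraries, was 128 to 182 against young obese 18 to 21 and 23. Those measured 6.44 to 22.8 among themselves and 157 to 207 against young obese 1 and 2. Young obese 22 was left out on its own, but the results without either pair keep it. Cd34 in aged obese 10 and 12 measured 0.193 and 0.732 CPM, and 9.67 to 38.0 CPM in aged obese 14, 15, 16 and 17. Ly6a measured 176.5 and 361.8 CPM in the same pair, and 917 to 1019 CPM in those 4. Of 11 mural and smooth muscle markers, Des, Acta2, Myh11 and Cnn1 were higher in both than in those 4, Notch3 and Abcc9 were lower in both, and the summed level was 9403 to 11645 CPM against 5698 to 9508 CPM. Cd34 in young obese 1 and 2 measured 26.1 and 27.9 CPM, whereas young obese 18 to 23 held 0.912 to 2.79 CPM. Ly6a went the other way, with 549.5 and 689.1 CPM in this pair and 718.2 to 810.7 CPM in young obese 18 to 23. Among mural markers, Notch3, Kcnj8 and Abcc9 were higher and Mcam and Cnn1 lower in both than in those 6, and the summed level over the 8 libraries was 7097 to 9191 CPM. The part of these marker differences in the results was not tested, and in bulk RNA fewer cells of a type and less RNA per cell cannot be told apart.

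No gene of the 10 passed the test in any of the 6 comparisons that the design allows. The test was edgeR's quasi-likelihood test across 14438 genes, and a gene was called where p, adjusted by the Benjamini-Hochberg method, fell below 0.05. Fold changes are given as log2 values with their standard errors. Between cultures of the same group, Eln and Efemp1 varied more than nearly all other genes and Fbln2, Loxl1 and Loxl2 about as much as the median gene or less, and most of the 10 moved together.

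Levels per kilobase of transcript, the scale on which genes can be compared, differed widely. Fbln2 (mean over 30 libraries 1792 CPM per kb) and Lox (1406 CPM per kb) were the most abundant. Efemp2 followed (426 CPM per kb), then Loxl2 (209.6), Mfap5 (202.6), Loxl1 (200.3) and Efemp1 (181.8 CPM per kb), and these last 4 lay closer to each other than the spread between libraries. Fbln1 (44.3 CPM per kb) and Fbln5 (37.5 CPM per kb) were lower, and Eln was lowest at 2.29 CPM per kb. The plot of levels by library shows every value.

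**Figure D1:**
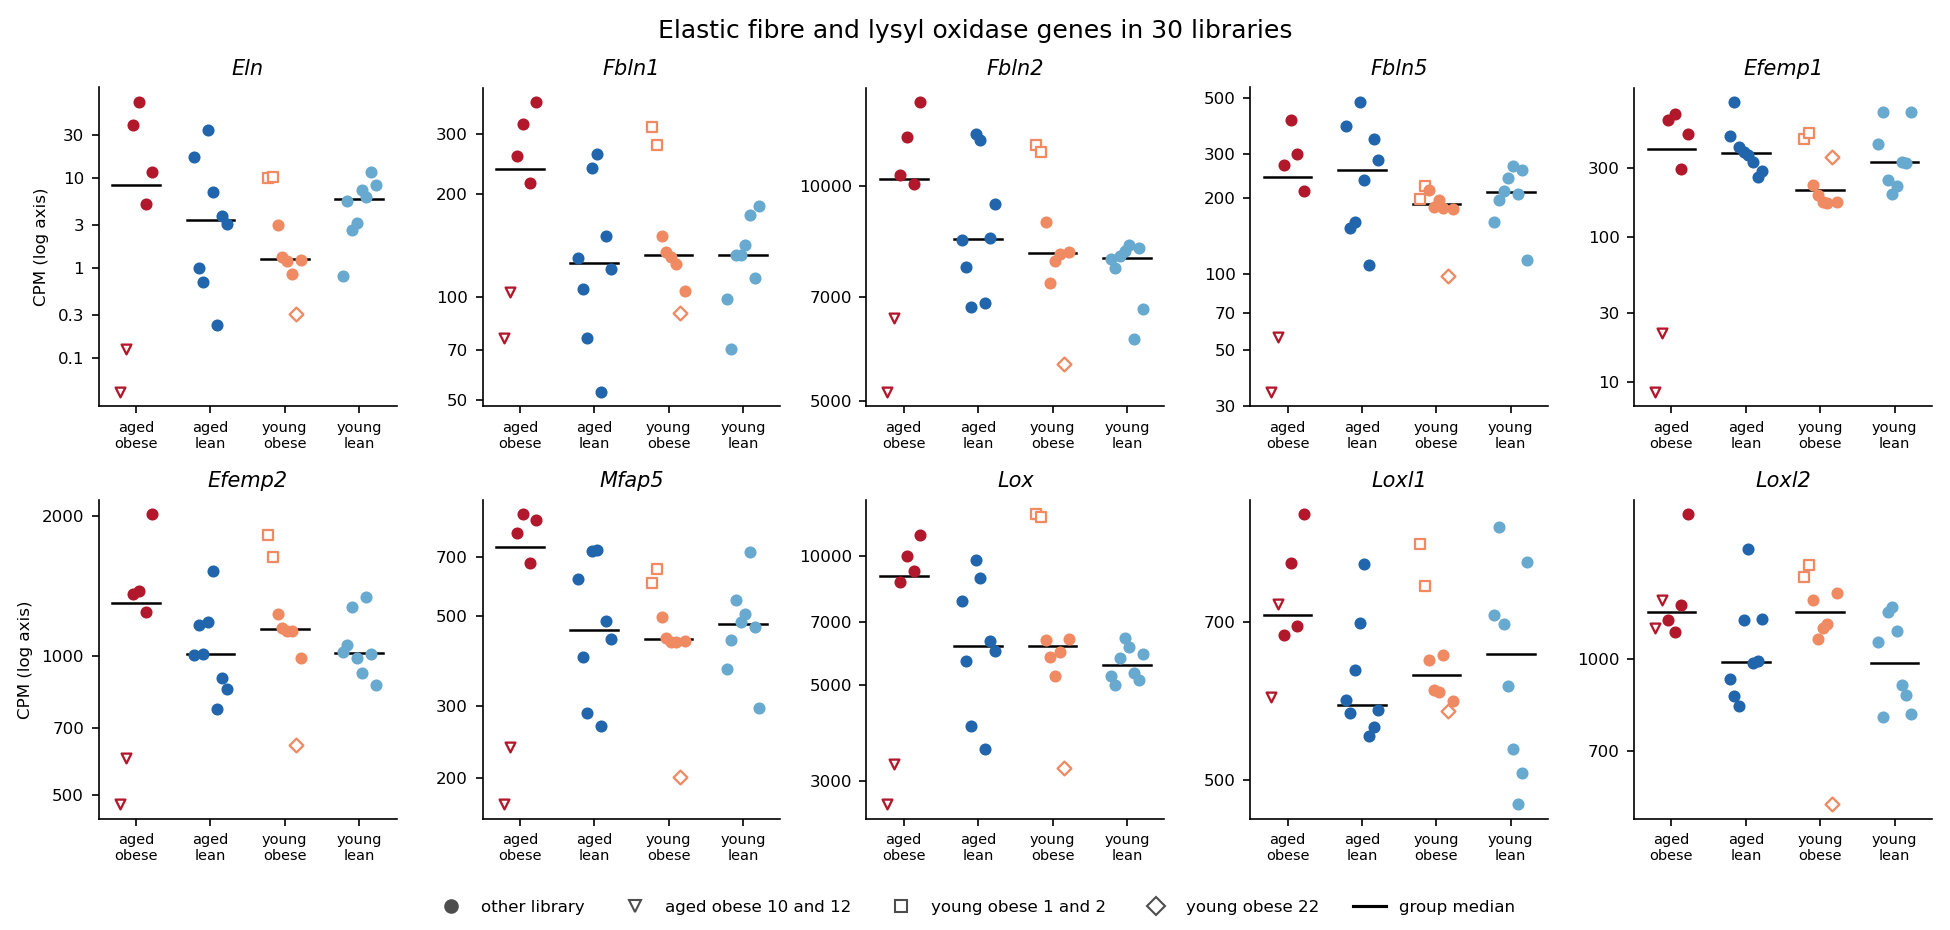
Level of each gene in CPM (log axis) in every library of the 4 groups, with a line at the group median. Open triangles are aged obese 10 and 12, open squares young obese 1 and 2, and the open diamond young obese 22. The triangles lie lowest in their group for 8 of the 10 genes and within the range of the other aged obese libraries, or next to it, for Loxl1 and Loxl2.

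Eln (ENSMUSG00000029675, chromosome 5), the gene of tropoelastin, varied most. Aged obese libraries had 0.0428, 0.126, 5.17, 11.5, 38.7 and 69.1 CPM. The lowest, median and highest levels were 0.231, 3.43 and 33.8 CPM in aged lean, 0.310, 1.27 and 10.3 CPM in young obese, and 0.818, 5.85 and 11.6 CPM in young lean libraries. Both the highest and the lowest Eln level of the study were thus in aged obese cells, and all 4 ranges overlapped. By median the order was aged obese (8.34 CPM), young lean, aged lean and young obese, and no neighbours in it differed beyond their spread. The 2 lowest libraries, aged obese 10 and 12, had 2 and 5 Eln reads, so no fold against them is given. The difference of aged obese from young obese cells was 2.57 ± 1.02 on the log2 scale and did not pass (unadjusted p = 0.0176, edgeR adjusted p = 0.16), with 4 of 6 aged obese libraries above the young obese median and 2 below it.

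Among the fibulins, Fbln1 (ENSMUSG00000006369, chromosome 15), which binds elastin and basement membranes, was highest in aged obese cells by mean. It averaged 224.5 ± 117.7 CPM in aged obese (n = 6), 142.5 ± 74.1 CPM in aged lean, 166.3 ± 83.4 CPM in young obese and 131.1 ± 37.4 CPM in young lean libraries (SD, n = 8 each). Single aged obese libraries had 75.8, 103.2, 216.1, 258.8, 320.5 and 372.8 CPM, and young lean libraries 70.7 to 184.4 CPM with a median of 133.1 CPM. Of the aged obese libraries, 4 lay above every young lean library and 2 within their range. The difference between aged obese and young lean cells was 0.78 ± 0.35 on the log2 scale and did not pass (unadjusted p = 0.0341, edgeR adjusted p = 0.142).

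Fbln2 (ENSMUSG00000064080, chromosome 6), a binding partner of tropoelastin and fibrillin, had its highest median in aged obese cells. Aged obese libraries had a median of 10204 CPM (5162 to 13087), aged lean 8418 CPM (6783 to 11805), young obese 8054 CPM (5643 to 11392) and young lean 7936 CPM (6119 to 8275). All 4 ranges overlapped, and young lean libraries lay closest together. The difference between aged obese and young lean cells was 0.32 ± 0.18 on the log2 scale and did not pass (edgeR adjusted p = 0.24), with 4 of 6 aged obese libraries above all 8 young lean libraries and 2 below their median. Fbln5 (ENSMUSG00000021186, chromosome 12), which tethers tropoelastin to cells and to Loxl1, had medians of 242.5 CPM in aged obese (34.2 to 408.3), 258.5 CPM in aged lean (108.6 to 480.8), 189.8 CPM in young obese (98.3 to 222.2) and 210.5 CPM in young lean libraries (113.1 to 267.2). Its order by median put both aged groups above both young ones, with differences within the spread (log2 0.21 ± 0.37 for age in obese and 0.37 ± 0.34 for age in lean cells).

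Efemp1 (ENSMUSG00000020467, chromosome 11), a fibulin known from fascia and the eye, had the widest spread after Eln. Aged obese libraries had 8.61, 21.96, 296.7, 515.7, 645 and 703.3 CPM. Aged lean libraries ranged from 257.7 to 854.7 CPM (median 378.8), young obese from 172.1 to 518.8 CPM (median 212.1) and young lean from 197.9 to 733.9 CPM (median 328). The 2 lowest aged obese libraries were below every other library of the study, and the other 4 overlapped with each group. Efemp2 (ENSMUSG00000024909, chromosome 19), which brings lysyl oxidase to tropoelastin, had medians of 1301 CPM in aged obese (478.8 to 2017), 1008 CPM in aged lean (768.8 to 1527), 1140 CPM in young obese (641.1 to 1818) and 1014 CPM in young lean libraries (863.1 to 1340). All 4 of these ranges overlapped. Efemp2 was the only gene of the 10 that shares exon bases with another counted gene (173 bases with Mus81 on the opposite strand), and whether the counting used strand was not given in the sources used here.

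Start-site windows of 4 of these fibulins are shown. Fbln1, Fbln2 and Fbln5 are among 6 genes that followed each other between libraries and were grouped after this was seen, as described further on. Efemp1 did not follow Lox. RefSeq windows on GRCm38.p6, from 250 bases before to 50 after an annotated start, were at hand for 5 of the 10 genes (Fbln1, Fbln2, Fbln5, Efemp1 and Efemp2), and 1 window a gene is printed for 4 of them. Fbln1 and Fbln5 each have 1 more window, not printed, with 0 matches to the motifs named here. Efemp2, which also followed Lox (r = 0.746), has 3 windows, likewise not printed, with 2, 5 and 7 matches to GGGCGG, some of them overlapping, 0 to the other motifs, and a GC content of 60.3%, 76% and 78.3%. Fbln1 is at chr15:85205758-85206057 (plus strand), Fbln2 at chr6:91212514-91212813 (plus strand), Fbln5 at chr12:101819070-101819369 (minus strand) and Efemp1 at chr11:28852955-28853254 (plus strand). Each runs 5′ to 3′ along its gene's strand, and capitals mark matches, on either strand, to the TATA box motif TATAAA, the motifs CCAAT and GGGCGG, and the AP-1 motif TGANTCA:
Fbln1: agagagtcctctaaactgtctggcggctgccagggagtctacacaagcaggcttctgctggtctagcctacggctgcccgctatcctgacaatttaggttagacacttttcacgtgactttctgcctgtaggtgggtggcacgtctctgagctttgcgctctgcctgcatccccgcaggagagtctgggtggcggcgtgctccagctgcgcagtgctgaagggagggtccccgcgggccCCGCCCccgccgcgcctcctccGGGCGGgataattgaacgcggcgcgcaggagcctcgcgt
Fbln2: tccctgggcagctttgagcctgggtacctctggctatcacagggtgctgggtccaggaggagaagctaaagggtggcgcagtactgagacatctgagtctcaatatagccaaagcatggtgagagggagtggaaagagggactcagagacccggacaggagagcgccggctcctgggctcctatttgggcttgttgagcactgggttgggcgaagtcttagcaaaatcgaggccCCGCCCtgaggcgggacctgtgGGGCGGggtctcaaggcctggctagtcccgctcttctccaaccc
Fbln5: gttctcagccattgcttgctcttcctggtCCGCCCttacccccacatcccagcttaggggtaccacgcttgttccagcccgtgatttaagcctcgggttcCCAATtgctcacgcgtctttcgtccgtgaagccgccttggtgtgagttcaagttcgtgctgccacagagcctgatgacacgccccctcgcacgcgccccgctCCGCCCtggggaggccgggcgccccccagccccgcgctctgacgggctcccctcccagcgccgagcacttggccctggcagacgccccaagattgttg
Efemp1: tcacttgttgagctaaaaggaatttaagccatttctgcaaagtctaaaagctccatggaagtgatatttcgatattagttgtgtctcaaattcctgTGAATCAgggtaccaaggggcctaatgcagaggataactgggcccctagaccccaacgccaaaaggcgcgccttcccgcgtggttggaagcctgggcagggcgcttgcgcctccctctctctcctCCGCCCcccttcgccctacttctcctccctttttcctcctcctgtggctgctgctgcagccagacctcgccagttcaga
GGGCGG had 2 matches each in Fbln1, Fbln2 and Fbln5 and 1 in Efemp1, and at least 1 in 35.7% of all 32851 windows of this length. CCAAT had 1 match in Fbln5 (37.4% of all windows hold it), TGANTCA had 1 in Efemp1 (7.81%), and TATAAA had 0 in the 4 windows (13.6%). No matches overlapped in these 4 windows. GC content was 64% in Fbln1, 60.3% in Fbln2, 65.7% in Fbln5 and 54.3% in Efemp1, where the median window had 52.7%. Such matches describe the letters of these windows and no binding was measured.

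Mfap5 (ENSMUSG00000030116, chromosome 6), a glycoprotein bound to fibrillin microfibrils, had 172.2, 237.7, 677.5, 804.4, 862.2 and 891.5 CPM in aged obese libraries. Aged lean libraries ranged from 268.6 to 728.2 CPM (median 463.4), young obese from 201.3 to 652.3 CPM (median 438.9) and young lean from 297.5 to 721.1 CPM (median 477.3). The 4 higher aged obese libraries lay above every young obese library and the 2 lower ones within or below that range, and for 9.18% of all genes the same 4 did not overlap with young obese libraries, 4.67% in that direction. The comparison of aged obese with young obese cells gave 0.39 ± 0.30 on the log2 scale (edgeR adjusted p = 0.515).

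Lox (ENSMUSG00000024529, chromosome 18), the main cross-linking enzyme of elastin and collagen, was the most abundant lysyl oxidase gene in each group. Aged obese libraries had 2645, 3274, 8695, 9213, 9987 and 11192 CPM. Aged lean libraries ranged from 3555 to 9753 CPM (median 6166), young obese from 3213 to 12476 CPM (median 6168) and young lean from 5006 to 6421 CPM (median 5567). Young lean libraries were tightly grouped, and each of the other groups held libraries both above and below their whole range. Lox differed by 0.42 ± 0.29 between aged obese and young lean cells on the log2 scale (edgeR adjusted p = 0.364).

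Loxl1 (ENSMUSG00000032334, chromosome 9), which acts on elastin and maintains elastic fibres in adults, was the steadiest of the 10. It averaged 729.3 ± 98.4 CPM in aged obese (n = 6), 623.3 ± 83.5 CPM in aged lean, 658 ± 88.4 CPM in young obese and 648.7 ± 139.5 CPM in young lean libraries (SD, n = 8 each). Loxl2 (ENSMUSG00000034205, chromosome 14), a cross-linker of basement membrane collagen among other substrates, averaged 1276 ± 242 CPM in aged obese, 1059 ± 227 CPM in aged lean, 1163 ± 270 CPM in young obese and 999 ± 174 CPM in young lean libraries. The ranges of the 4 groups overlapped for both enzymes. The difference of Loxl2 between aged obese and young lean cells was 0.35 ± 0.16 on the log2 scale, short of the threshold (unadjusted p = 0.0373, edgeR adjusted p = 0.149).

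With age in obese cells, 0 of the 10 genes were called by edgeR, where 3.07% of all tested genes were. At an unadjusted p below 0.05 there was 1, Eln, against 18.9% of all genes. DESeq2 called 0 and voom with quality weights called 2, Eln (2.63 ± 0.90, adjusted p = 0.039) and Fbln1 (0.83 ± 0.28, adjusted p = 0.0351), where it called 19.9% of all genes and 9.83% higher; DESeq2 called 5.44%. Of the 10 differences 9 were positive, with a median of 0.18 on the log2 scale (all genes 0.01).

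With age in lean cells, edgeR called 0 of the 10 and 0.0% of all genes, and none of the 10 had an unadjusted p below 0.05, against 5.35% of all genes. DESeq2 and voom also called 0 of the 10, and 0.0271% and 0.0416% of all genes. The differences lay between -0.06 for Loxl1 and 0.55 for Eln on the log2 scale, with a median of 0.10 (all genes -0.02).

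With obesity in aged cells, edgeR called 0 of the 10 and 0.222% of all genes, with 0 of the 10 and 12.7% of all genes at an unadjusted p below 0.05. With obesity in young cells it called 0 of the 10 and 8.83% of all genes, with 0 of the 10 and 28.3% of all genes at an unadjusted p below 0.05. DESeq2 and voom called 0 of the 10 in both, where they called 1.1% and 0.79% of all genes in aged cells and 12.2% and 29.5% in young cells. The differences ranged from -0.33 (Fbln5) to 1.32 (Eln) in aged cells, with a median of 0.22 (all genes 0.01), and from -0.70 (Eln) to 0.36 (Lox) in young cells, with a median of 0.09 (all genes -0.02). For Eln the obesity difference was larger in aged than in young cells by 2.02 ± 1.37 on the log2 scale, which did not pass as an interaction (unadjusted p = 0.151, edgeR adjusted p = 0.688). No interaction of the 10 passed by edgeR, DESeq2 or voom or had an unadjusted p below 0.05, where edgeR called 0.00693% of all genes, 8.0% had such a p, and DESeq2 and voom called 0.0233% and 0.63%.

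Between aged obese and young lean cells, edgeR called 0 of the 10 and 10.3% of all genes. Fbln1 and Loxl2 were the 2 of the 10 with an unadjusted p below 0.05, against 28% of all genes, and DESeq2 and voom called 0, where they called 13% and 4.81% of all genes. Of the 10 differences 9 were positive, with a median of 0.33 (all genes -0.01), and Efemp1 was the exception at -0.14 ± 0.56. In the 5 comparisons of 2 groups, 0 of the 10 genes had ranges that did not overlap, against 1.18% of all genes for age in obese, 0.00693% for age in lean, 0.187% for obesity in aged, 1.61% for obesity in young cells and 1.04% for aged obese against young lean cells. A difference that missed the threshold is not shown to be absent: the standard errors ran from 0.11 for Loxl1 to 1.02 for Eln in these 5 comparisons.

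**Figure D2:**
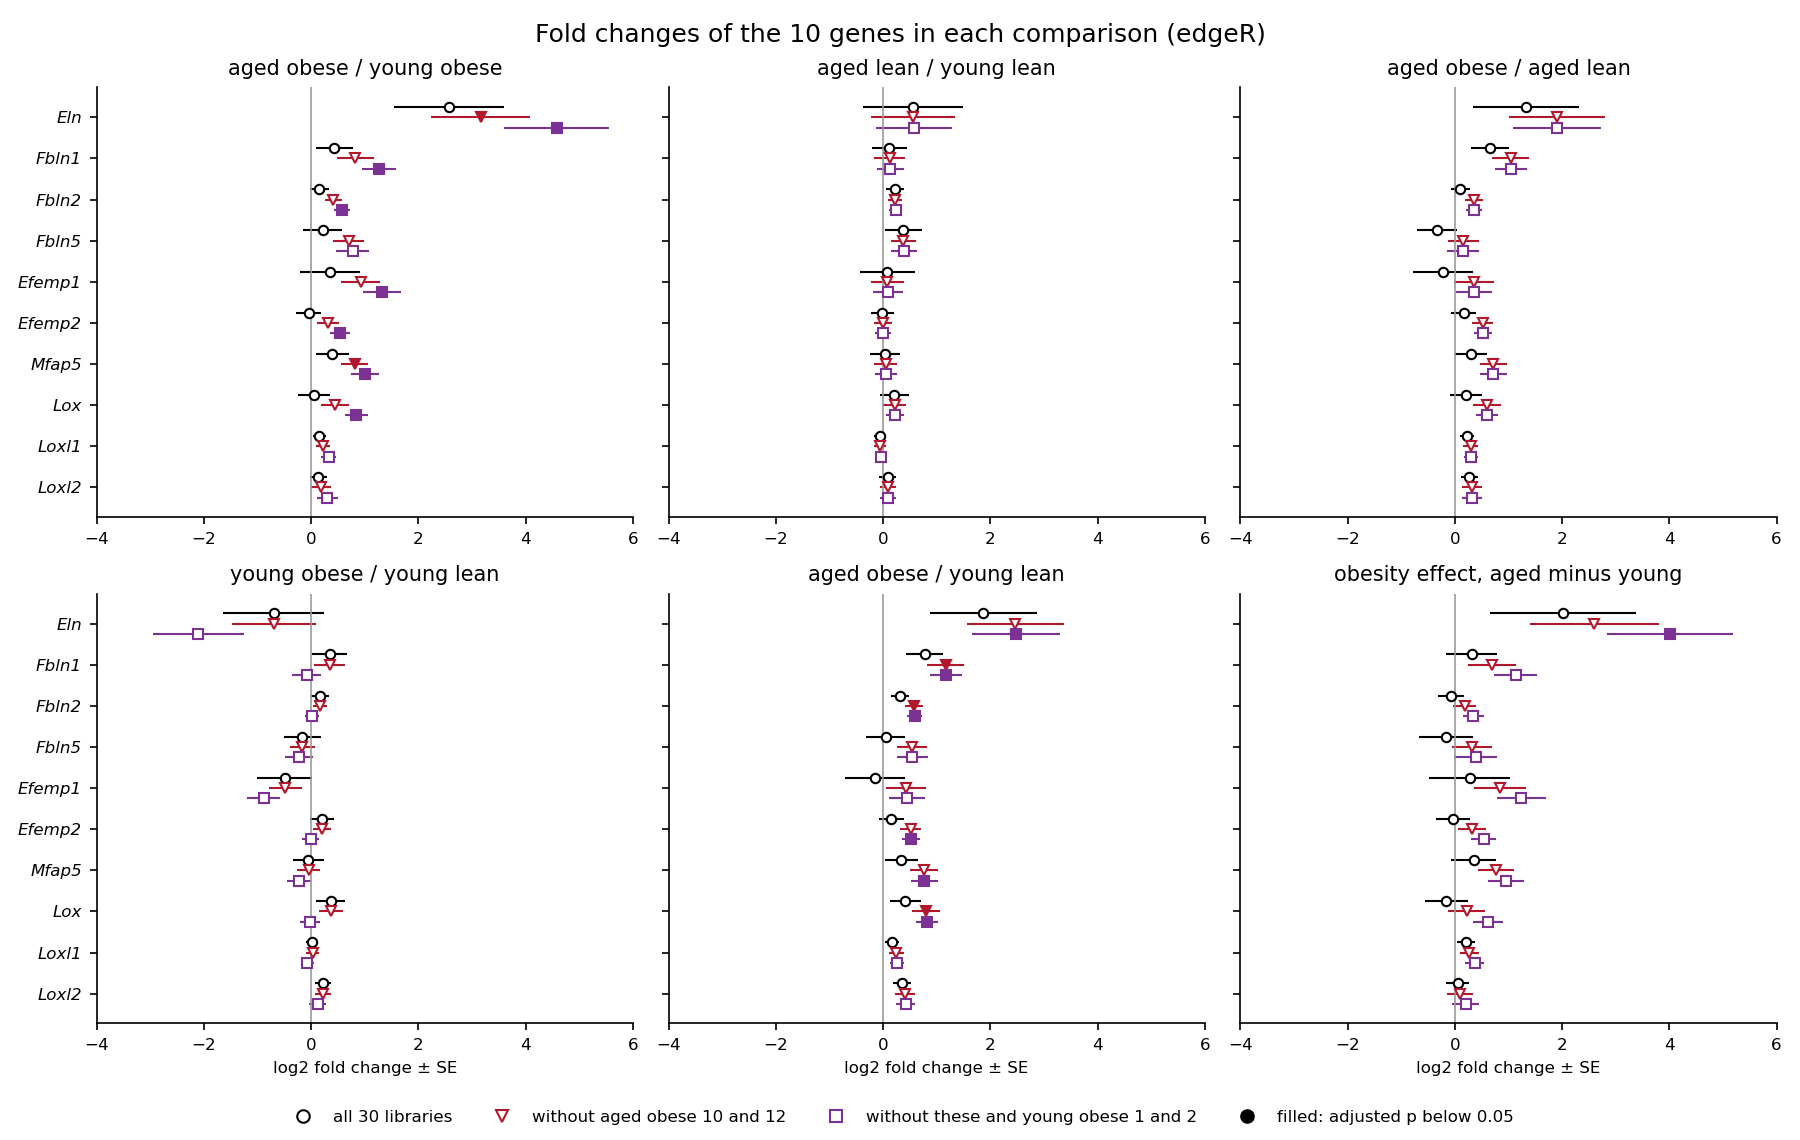
Log2 fold change with its standard error (bars) for each gene and comparison, from all 30 libraries (circles), without aged obese 10 and 12 (triangles) and without these and young obese 1 and 2 (squares). Filled symbols have an adjusted p below 0.05. No circle is filled, and in the aged obese against young obese panel 2 triangles and 7 squares are.

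These counts turned on the pairs that stood apart. Aged obese 10 and 12 were lower than each of the other 4 aged obese libraries for 8 of the 10 genes, where 26.8% of all tested genes were lower in both, and the exceptions were Loxl1 and Loxl2. For Lox the pair measured 2645 and 3274 CPM and the other 4 measured 8695 to 11192 CPM, and for Fbln5 34.2 and 56.3 CPM and 214 to 408.3 CPM. For Loxl1 the pair measured 597 and 728 CPM and the other 4 measured 682 to 881 CPM, and for Loxl2 1128 and 1260 CPM and 1112 to 1755 CPM. Without the 2 libraries, Eln (3.16 ± 0.92, adjusted p = 0.0225) and Mfap5 (0.81 ± 0.25, adjusted p = 0.0297) were higher in aged obese than in young obese cells, and edgeR then called 18.3% of all genes, 9.46% higher. Against young lean cells, Fbln1 (1.17 ± 0.34, adjusted p = 0.0316), Fbln2 (0.58 ± 0.16, adjusted p = 0.0269) and Lox (0.81 ± 0.26, adjusted p = 0.0468) were then higher in aged obese cells, with 10.3% of all genes called and 6.11% called higher. The 4 remaining aged obese libraries lay above all 8 young lean libraries for the same 3 genes, where 4.82% of all genes did not overlap, 1.79% in that direction. For the other 7 genes the ranges overlapped. Leaving out the 2 libraries that are lowest for the called genes raises such differences by construction. The ranges reuse the same values as the calls and add no separate evidence.

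Young obese 1 and 2 stood at the other end. They were higher than each of the other 6 young obese libraries for 9 of the 10 genes, where 30.1% of all tested genes were, with Fbln5 the exception. For Lox this pair measured 12476 and 12340 CPM and the other 6 measured 3213 to 6413 CPM, and for Fbln1 314.5 and 279.7 CPM and 89.8 to 151.1 CPM. Without them Eln was higher in aged obese than in young obese cells (3.98 ± 1.16, adjusted p = 0.0471), the only one of the 10 called, with 4.46% of all genes called and 3.1% called higher. Obesity in young cells then gave -2.11 ± 1.05 for Eln and did not pass (adjusted p = 0.217), where 0.993% of all genes were called.

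Without all 4 libraries, edgeR called 7 of the 10 genes higher with age in obese cells, where 30.2% of all genes were called and 16.2% were called higher. They were Eln (4.58 ± 0.98, adjusted p = 0.00236), Efemp1 (1.33 ± 0.36, adjusted p = 0.00794), Fbln1 (1.26 ± 0.32, adjusted p = 0.00532), Mfap5 (1.0 ± 0.26, adjusted p = 0.007), Lox (0.84 ± 0.21, adjusted p = 0.006), Fbln2 (0.58 ± 0.15, adjusted p = 0.00758) and Efemp2 (0.53 ± 0.18, adjusted p = 0.031). Fbln5 (0.77 ± 0.31, adjusted p = 0.061), Loxl1 (0.33 ± 0.14, adjusted p = 0.0758) and Loxl2 (0.30 ± 0.19, adjusted p = 0.25) were not called. With all 30 libraries the difference of Efemp2 was -0.04 ± 0.23, so its sign turned. Against young lean cells 6 of the 10 were then called higher (Eln, Fbln1, Fbln2, Efemp2, Lox and Mfap5), where 17% of all genes were called and 9.63% higher, and in the interaction 1 was (Eln), where 9.76% were called and 5.05% in that direction. Leaving out libraries that are low in one group and high in the other raises such differences by construction, so these values describe the remaining 26 cultures. These include young obese 22, the lowest young obese library for each of the 7 genes called with age in obese cells but Efemp1. Values without it as well were not computed.

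**Figure D3:**
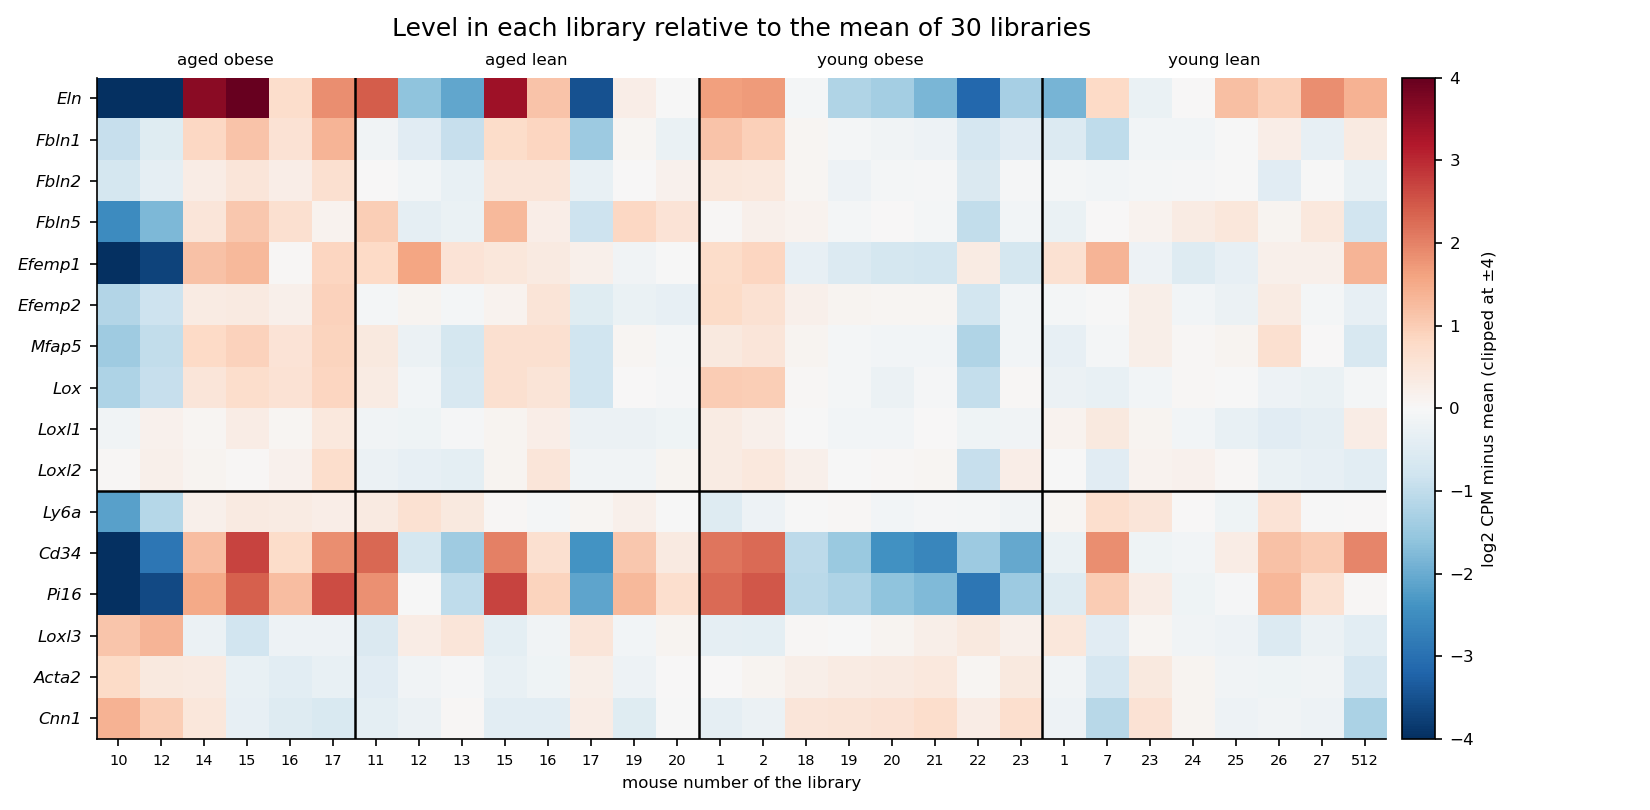
Log2 CPM of each gene (rows) in each library (columns, by mouse number) minus its mean over 30 libraries, clipped at 4 in either direction. The upper 10 rows are the elastic fibre and lysyl oxidase genes and the lower 6 are the sort marker genes Ly6a and Cd34, the fibroblast gene Pi16, Loxl3 and the contractile genes Acta2 and Cnn1. Columns 10 and 12 of the aged obese group are blue for most of the upper rows and for Cd34, and red for Loxl3 and Cnn1.

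Most of the variance of these genes lay between cultures of the same group. Within groups, the SD on the log2 scale was 2.37 for Eln, larger than that of 99.97% of tested genes, and 1.34 for Efemp1, larger than that of 99.0%. It was 0.80 for Fbln5, 0.70 for Fbln1, 0.64 for Mfap5, 0.59 for Lox and 0.47 for Efemp2. Fbln2 (0.34), Loxl2 (0.31) and Loxl1 (0.23) were near or below the median gene (0.33). Groups accounted for 1.35% (Mfap5) to 15.8% (Loxl2) of the variance, where the median gene had 17.3%. Without aged obese 10 and 12 the group share was 15.5% (Loxl2) to 34.3% (Fbln2), against 23.02% for the median gene, and the SD of Eln was 1.78, still above that of 99.9% of genes. The SD of Efemp1 then fell to 0.64, above that of 86.0% of genes.

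Levels of the genes moved together between cultures of a group. Over 28 libraries, without aged obese 10 and 12 and after removal of group means from log2 CPM, the 45 pairs had a median Pearson's r of 0.556, and 14 pairs reached at least 0.7. With all 30 libraries the median was 0.691, and without young obese 1 and 2 as well it was 0.508. The closest pair was Lox and Fbln2 (r = 0.882, rho = 0.772, and r = 0.871 without the 2 libraries farthest from the median, permutation adjusted p = 0.00015 over 45 pairs for r, where 1e-05 is the smallest p that 100000 permutations can give). Next were Lox and Fbln1 (r = 0.869, rho = 0.853, and r = 0.846 without 2 libraries, permutation adjusted p = 0.00015). Lox and Mfap5 (r = 0.822, rho = 0.745, and r = 0.825 without 2 libraries, permutation adjusted p = 0.00018) followed. After them came Fbln2 and Loxl2 (r = 0.788, rho = 0.741, and r = 0.797 without 2 libraries, permutation adjusted p = 0.00015). Lox and Eln (r = 0.78, rho = 0.66, and r = 0.759 without 2 libraries, permutation adjusted p = 0.000245) were next. All 15 pairs among Eln, Fbln1, Fbln2, Fbln5, Lox and Mfap5 had r between 0.499 and 0.882.

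Loxl1 and Efemp1 went less with the others, and 29 of 45 pairs passed at an adjusted p below 0.05. The share of all gene pairs that would pass was not computed, so this count is not read as particular to these genes. Over the 28 libraries, the median absolute r with all 14437 other genes was 0.267 (Loxl2) to 0.363 (Lox). Of 9 pairs with Efemp1 1 passed, that with Loxl1 (r = 0.508, rho = 0.449, and r = 0.51 without 2 libraries, permutation adjusted p = 0.0221), and Efemp1 and Lox had r = 0.189 (rho = 0.0547, and r = 0.272 without 2 libraries, permutation adjusted p = 0.407). Of 9 pairs with Loxl1 4 passed. With all 30 libraries, r between Efemp1 and Lox was 0.658, so that value rested on aged obese 10 and 12, and without young obese 1 and 2 as well it was -0.206. Among all genes, 5.73% had r of at least 0.7 with Lox and 3.99% with Eln over the 28 libraries, so broad sets of genes moved with them. Libraries such as young obese 18, 19, 20, 21 and 23 lay close together, as did young obese 1 and 2, and may not be independent. In that case these p-values are too small, and so are those of each comparison that uses young obese cells.

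**Figure D4:**
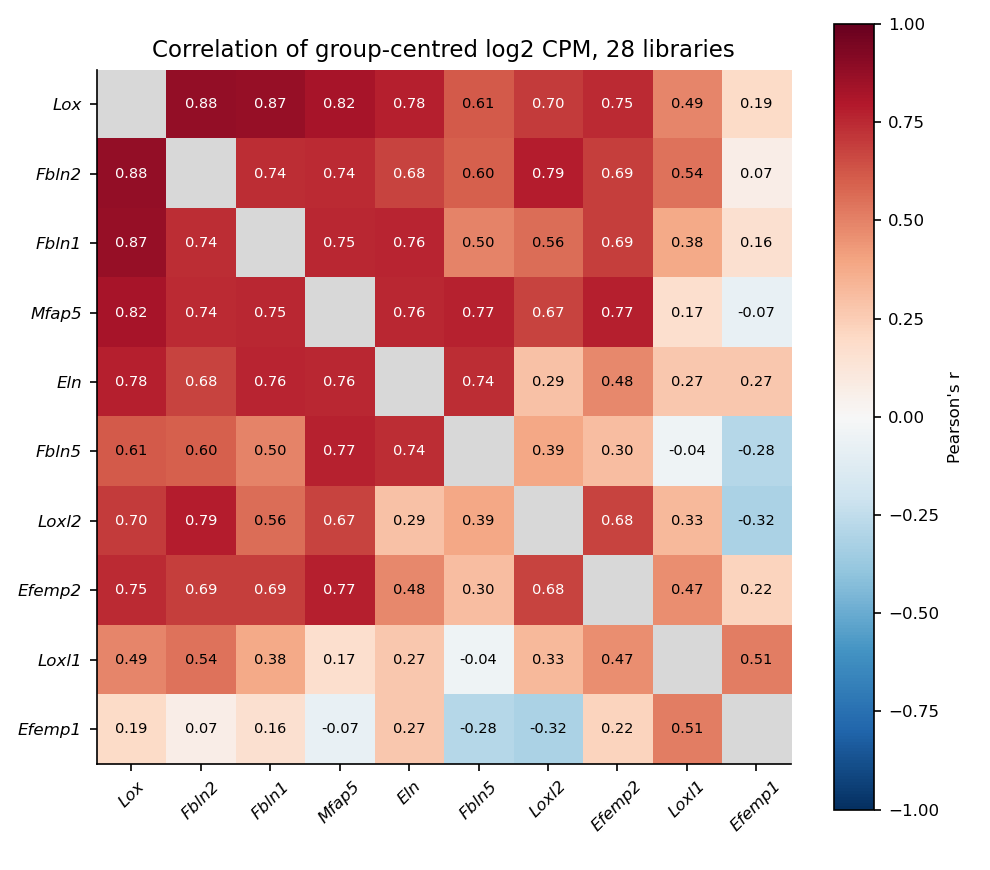
Pearson's r between each pair of the 10 genes over 28 libraries, from log2 CPM after removal of group means, without aged obese 10 and 12. The 6 genes from Lox to Fbln5, grouped after these values were seen, have r from 0.499 to 0.882 with each other. Some pairs with Loxl2 or Efemp2 are as high, and the rows of Loxl1 and Efemp1 are pale.

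The genes most like Eln by Pearson's r of group-centred log2 CPM, over 30 libraries and the 10045 genes averaging 4 CPM or more, were Islr (r = 0.968), a membrane protein of stromal cells, Vegfd (r = 0.964), a lymphatic growth factor, Trp53inp2 (r = 0.963), Podxl2 (r = 0.958) and Oplah (r = 0.949). Those most like Lox were Thra (r = 0.981), a thyroid hormone receptor, the mannosidase Man2b2 (r = 0.978), Txndc16 (r = 0.974), the vitamin B12 carrier Tcn2 (r = 0.969) and Acadsb (r = 0.958). Those most like Mfap5 were Ndufa4l2 (r = 0.965), Pigs (r = 0.963), the BMP antagonist Chrd (r = 0.956), Sgce (r = 0.953) and the protease cathepsin L, Ctsl (r = 0.951). Over 28 libraries, r of these 15 genes was 0.904 (Ctsl) to 0.970 (Man2b2). None of the 10 genes was among them.

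Among other genes of the pathway, 1 of 21 tested microfibril and assembly genes was called with age in obese cells and 0 were lower, with a list median of 0.41 on the log2 scale (all genes 0.01), where 3.07% of all genes were called. It was Ltbp4, which binds microfibrils and Fbln5 and helps to lay down elastin. Aged obese libraries had 25.7, 35.0, 55.0, 62.0, 62.1 and 75.0 CPM of Ltbp4, and young obese libraries 11.3 to 31.8 CPM with a median of 19.8 CPM. Aged obese 10 and 12, low in Eln, held 62.0 and 75.0 CPM, and aged obese 16 alone fell within the young obese range. The difference was 1.29 ± 0.23 (adjusted p = 0.00585), with 6 of 6 libraries above the young obese median, and 40 of 40 alternative fits called it. Ltbp4 was also called with obesity in aged cells (1.14 ± 0.23, adjusted p = 0.0278), where 1 of 21 genes was called, higher, and between aged obese and young lean cells (0.87 ± 0.23, adjusted p = 0.018). Without aged obese 10 and 12 these last calls ended (0.90 ± 0.25, adjusted p = 0.13, and 0.64 ± 0.25, adjusted p = 0.0893). The call of Ltbp4 with obesity in aged cells also ended without aged obese 10 (adjusted p = 0.0811), 12 (0.088) or 15 (0.0663) or aged lean 12 (0.0672), 13 (0.0528), 17 (0.0571) or 19 (0.0507) and in a fit of the compared groups alone (0.205), and that against young lean cells ended without aged obese 12 (0.0521) or 15 (0.0503). The groups held 52.5% of the variance of Ltbp4.

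Marker genes moved in the same comparisons. With age in obese cells edgeR called 1 of 10 tested mural and smooth muscle markers, Cspg4, a proteoglycan of pericytes, which had 4.96, 19.7, 23.2, 36.9, 41.1 and 104.7 CPM in aged obese and 6.25 to 13.6 CPM in young obese libraries (2.04 ± 0.47, adjusted p = 0.0223). Of 7 fibroblast markers it called 1, Pdgfrb, a growth factor receptor that pericytes share, with 450.8 to 1194 CPM in aged obese and 349.2 to 542 CPM in young obese libraries (0.56 ± 0.15, adjusted p = 0.0419). Aged obese 15 was the highest of all libraries for both. Between aged obese and young lean cells edgeR called Cspg4 (1.5 ± 0.47, adjusted p = 0.0378), Myh11, the myosin of smooth muscle (1.2 ± 0.39, adjusted p = 0.0467), and Pdgfrb (0.52 ± 0.15, adjusted p = 0.0281), all higher. Each of these 5 marker calls ended without aged obese 15. Of them, Pdgfrb with age in obese cells also ended without aged obese 14 or 17 or any 1 of the 8 young obese libraries. Against young lean cells, Pdgfrb ended without aged obese 17 or young lean 26, Cspg4 without aged obese 10 or 12 or any 1 of young lean 23 to 27, and Myh11 without aged obese 10, 12 or 14, aged lean 17 or any 1 young lean library other than 23 and 25. Those of Cspg4 and Myh11 against young lean cells also ended without aged obese 10 and 12 (adjusted p = 0.0632 and 0.305), while that of Cspg4 with age in obese cells was kept (2.04 ± 0.53, adjusted p = 0.0136). With obesity in aged cells edgeR called 0 of the 10 mural markers and 5 had an unadjusted p below 0.05, all 10 differences being positive with a median of 0.66. Here DESeq2 called Abcc9 and Myh11 higher (1.1% of all genes called) and voom Abcc9 (0.79%). With age in obese cells voom called Abcc9, Cspg4, Rgs5, Cd34, Pdgfrb and Pi16 higher (9.83% of all genes higher). DESeq2 called Cspg4, Rgs5 and Pdgfrb higher there (5.44% of all genes called). With obesity in young cells voom called Acta2, Cnn1 and Myh11 higher and Notch3, Rgs5, Cd34 and Pi16 lower (13.9% and 15.7% of all genes), and DESeq2 Rgs5 lower. Between aged obese and young lean cells DESeq2 called Cspg4, Myh11 and Pdgfrb higher (13% of all genes called) and voom Abcc9 and Pdgfrb (4.81%). In the interaction voom called Abcc9 higher. Of the endothelial, leukocyte, adipocyte and mesothelial markers, edgeR called 0 in each comparison. With obesity in young cells DESeq2 called Cdh5, Adipoq and Plin1 lower (12.2% of all genes called) and voom Cd68 higher. With age in obese cells voom called Cd68 and Krt19 lower (19.9% of all genes called). Between aged obese and young lean cells DESeq2 called Krt19 lower. The summed level of the 11 listed mural markers was 5698 to 11645 CPM in aged obese, 5745 to 7720 CPM in aged lean, 7097 to 9191 CPM in young obese and 4130 to 9157 CPM in young lean libraries. The part of these markers in the calls of Ltbp4, Ltbp2, Slc31a1 and Col5a3 was not tested.

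Ltbp2, a protein of fibrillin microfibrils that also binds Fbln5, was the other of 21 called between aged obese and young lean cells, both higher, where 10.3% of all genes were called. It had a median of 1180 CPM in aged obese (486.1 to 1531) and 622.6 CPM in young lean libraries (387.7 to 1029), with overlapping ranges (0.80 ± 0.21, adjusted p = 0.0177). Leaving out aged obese 10 and 12 gave 0.74 ± 0.24 (adjusted p = 0.047). The call ended in a fit of the compared groups alone (adjusted p = 0.0701) and with voom (0.089). DESeq2 called Ltbp2, Ltbp4 and Emilin1, a glycoprotein of elastic fibres, higher in this comparison, and voom Ltbp4 and Emilin1. By the main edgeR fit no microfibril gene was called with age in lean, with obesity in young cells or in the interaction (1, 3 and 3 of 21 at an unadjusted p below 0.05). Ltbp4 was called in the interaction with the length and GC offset (edgeR adjusted p = 0.0197) and without young obese 1 and 2 (0.0164), all 4 libraries (0.0132) or aged obese 16 (0.0318). Ltbp2 was called with obesity in young cells from the compared groups alone (0.0498) and without young lean 1 (0.0254) or aged obese 16 (0.0481). DESeq2 called 0 and voom 0 of the list with age in lean cells, and in the interaction both called Ltbp4 alone (1.54, adjusted p = 0.0223, by DESeq2 and 1.43, adjusted p = 0.0127, by voom). With obesity in young cells DESeq2 called 0, and voom called 2 higher (Ltbp2 and Thsd4) and 5 lower (Fbn2, Ltbp4, Mfap1a, Mfap2 and Tnxb), 7 of 21, where it called 29.5% of all genes, 13.9% higher and 15.7% lower. With age in obese cells voom called 8 of 21, all higher (Bgn, Emilin1, Fbln7, Ltbp3, Ltbp4, Mfap2, Mfap4 and Tnxb), where it called 9.83% of all genes higher, and DESeq2 called 2, Ltbp4 and Adamtsl4, where it called 5.44% of all genes.

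Copper supply is needed by lysyl oxidases, and 2 of 11 tested genes of the list of lysyl oxidases, their processing and copper handling were called, 1 in each of 2 comparisons in which 8.83% (obesity in young cells) and 10.3% of all genes (aged obese against young lean cells) were called. Atox1, a copper chaperone, averaged 57.2 ± 10.3 CPM in young obese and 80.4 ± 18.8 CPM in young lean libraries (SD, n = 8 each), and fell with obesity in young cells by 0.49 on the log2 scale (SE 0.12, adjusted p = 0.0223). Its call ended with an offset for transcript length and GC content (-0.19 ± 0.09, adjusted p = 0.202), without young obese 1 and 2 (-0.36 ± 0.12, adjusted p = 0.0862) and without young lean 7, 26 or 27 (adjusted p = 0.0518, 0.066 and 0.0503). Slc31a1, the copper importer, averaged 68.9 ± 11.8 CPM in aged obese (n = 6) and 56.6 ± 4.46 CPM in young lean libraries (SD, n = 8), a rise of 0.28 ± 0.08 (adjusted p = 0.0226) that ended without aged obese 15 (0.0933) or 17 (0.0792), in a fit of the compared groups alone (0.101) and with voom (0.0685). Other tools called further genes of this list. With obesity in young cells voom called Atp7a and Loxl4 higher and Atox1 and Pcolce lower, and DESeq2 called Atox1 and Pcolce2 lower. With age in obese cells voom called Fn1 higher and DESeq2 Pcolce2 higher. Between aged obese and young lean cells DESeq2 called Slc31a1 and voom called 0. Both called 0 of the list in the other comparisons. Loxl3, named after its values were seen, measured 1176 and 1401 CPM in aged obese 10 and 12 and 323.7 to 477.9 CPM in the other 4, the reverse of Lox.

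Of 10 fibrillar collagen and lysyl hydroxylase genes, Col5a3, a chain of type V collagen, rose with age in obese cells (1.65 ± 0.43, adjusted p = 0.0345) and edgeR called no other in any comparison. Cspg4 and Pdgfrb were called higher in the same comparison, as given above. DESeq2 also called Col5a3 for age in obese cells and, in addition, between aged obese and young lean cells (1.18, adjusted p = 0.0453). For this list voom called Col3a1 higher with age in obese cells and, with obesity in young cells, Plod3 higher and Col11a1 lower. Col5a3 had 65.3, 81.7, 194, 296, 375 and 543.5 CPM in aged obese libraries and 34.4 to 134.7 CPM in young obese libraries, with 2 of the 6 inside the young obese range. The call ended without aged obese 12 (adjusted p = 0.05), 15 (0.116) or 17 (0.113), without any 1 of young obese 18 to 23 (0.0546 to 0.0658), in a fit of the compared groups alone (0.061) and with voom (0.0549), and 29 of 40 alternative fits kept it. Of 10 tested elastin-degrading proteases and their inhibitors 0 were called in any comparison by edgeR, with 2 at an unadjusted p below 0.05 for age in obese, 1 for obesity in aged and 3 for aged obese against young lean cells. DESeq2 also called 0 in each comparison, while voom called 6 higher with age in obese cells (Ctsk, Mmp2, Mmp3, Mmp14, Prtn3 and Timp2), where it called 9.83% of all genes higher, and 3 lower with obesity in young cells (Ctsk, Mmp2 and Prtn3), where it called 15.7% of all genes lower, and 0 in the other comparisons. Their differences with age in obese cells were all positive, with a median of 0.37 (all genes 0.01).

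**Figure D5:**
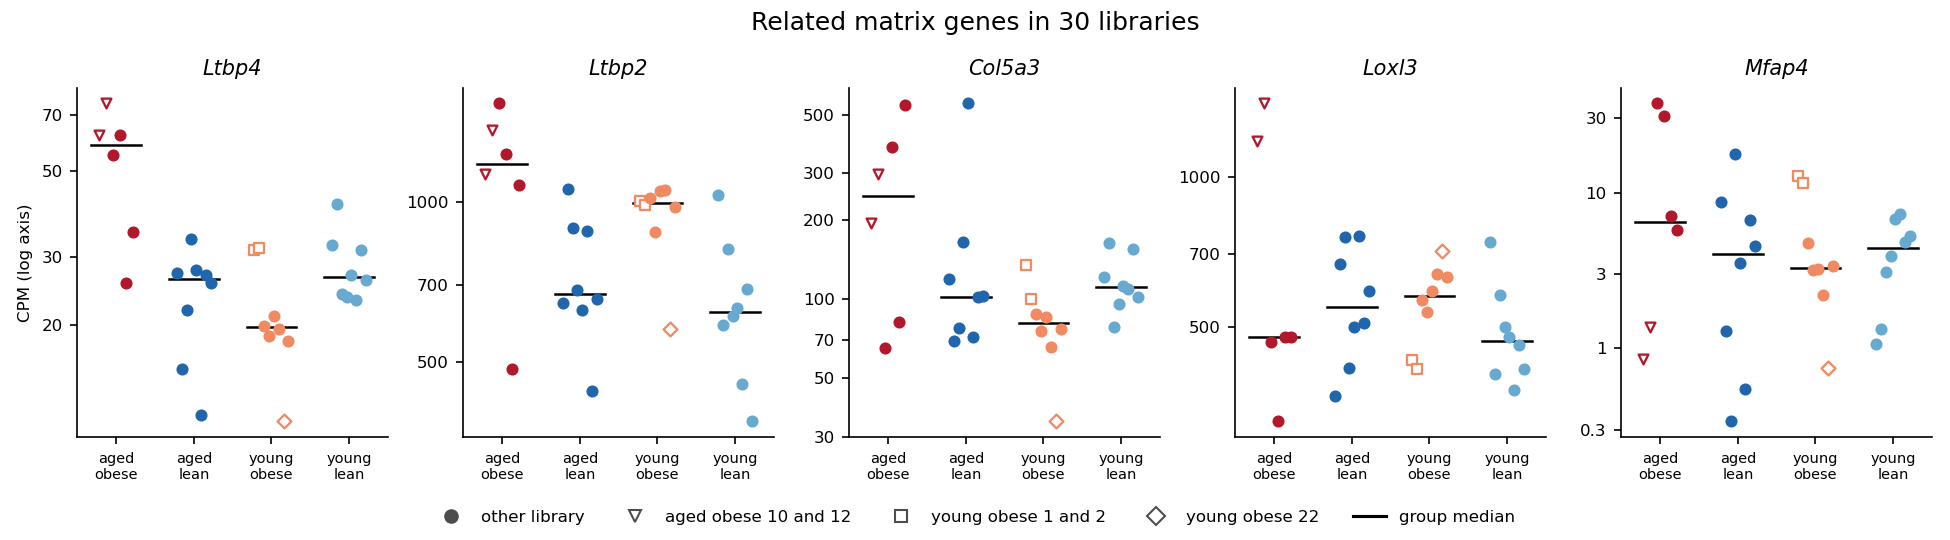
Level of Ltbp4, Ltbp2, Col5a3, Loxl3 and Mfap4 in CPM (log axis) in every library, with symbols as in the plot of the 10 genes and a line at the group median. Aged obese 10 and 12 (triangles) are high for Ltbp4 and Loxl3 and low for Mfap4, a microfibril protein that, like Loxl3, was chosen after its values were seen.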

How the data were processed

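RNA of 30 cultures was measured by sequencing, and the values used are raw counts per gene, deposited by the authors in 1 table for all libraries. Per the submitters' processing notes the tools were STAR, HTSeq 0.7.0 and DESeq2 1.12.4, and the sources used here name neither a genome build nor an annotation nor whether counting used strand. Groups came from the sample titles, and the deposited overview gives diet, sex, age and passage, with 1 mouse behind each library. Of 38561 genes, 36639 had a symbol in GENCODE vM21, which also gave transcript lengths, and 5 rows that name no gene were left out.

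Counts were tested with edgeR 4.0.16 in R 4.3.3 (TMM scaling, filterByExpr, a quasi-likelihood F-test with 1 term per group over all 30 libraries, 14438 genes) and adjusted by Benjamini and Hochberg over all tested genes. CPM are counts per 1000000 after TMM scaling. DESeq2 1.42.0 and voom with quality weights (limma 3.58.1) were alternatives, as were no filter, an offset for length and GC content, the compared groups alone, a replicate block and leaving out libraries. Total counts of 30597765 to 47970233 per library limit precision only for the lowest genes, such as Eln. For correlations, 2 counts were added before taking log2 CPM, and 100000 permutations gave p. The edgeR fit was tested on simulated data.

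The 10 genes and the related lists were chosen with earlier results of these data known. The genes named are these 10, genes of the related lists that passed the test (up to 8 per list and comparison), the 5 genes most like Eln, Lox and Mfap5, and markers that moved with a result. Others are said to be chosen after their values were seen.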

Additional observations from a re-analysis of the deposited data

Results flagged for a closer look

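Within each of the 4 groups, 40 sets of values (10 genes in 4 groups) were searched for a library far from the others by Dixon's test, and 4 stood out, where chance gives about 1 in 20. Young obese 22 was the lowest of its group by a wide gap for Fbln5 (98.3 CPM, against 180.2 to 222.2 CPM in the other 7), for Loxl2 (569.8 CPM, against 1082 to 1444 CPM) and for Mfap5 (201.3 CPM, against 432.1 to 652.3 CPM). Aged obese 17 was the highest of its group for Loxl2 (1755 CPM, against 1112 to 1260 CPM in the other 5). The cause was not tested.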

How the results depend on the processing

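The count of the 10 genes called stayed at 0 for age in lean and for obesity in young and in aged cells under each alternative run. For age in obese cells it was 2 without aged obese 10 and 12, 1 without young obese 1 and 2, 2 with voom and 7 without all 4 libraries. Voom gave low weights to these 4 libraries. For aged obese against young lean cells it was 3 without aged obese 10 and 12 and 6 without all 4, and for the interaction it was 1 without all 4 (Eln, 4.0 ± 1.18, adjusted p = 0.0365). Efemp2 with age in obese cells was 0.53 on the log2 scale without all 4 and -0.04 with all libraries. That setting was added after the data were seen, and the cause of these shifts was not tested. Leaving out 1 library at a time gave counts from 0 to 0 in each comparison. Whether mouse numbers pair libraries could not be decided, since the aged groups share only 4 numbers and the young groups 2. Deviations of same-numbered aged libraries correlated at -0.567 to 0.475 and young ones at -0.0434 and 0.36. Of these libraries, 2 of 8 aged and 4 of 4 young correlated best with their own number. A fit with the replicate block, on the 12 libraries with shared numbers, called 0 of the 10, as did the same libraries with no block. Depth limits Eln in aged obese 10 and 12, with 2 and 5 reads.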
